A study of Rattus norvegicus with 11 samples.

Results

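The tumour suppressor p53 is a transcription factor that is stabilised when DNA or the nucleus is damaged. Its targets act on cell cycle arrest, cell death, metabolism and the return of p53 to its resting level, and in neurons, which no longer divide, the targets that trigger cell death have drawn most attention. The 10 target genes described here are Mdm2, Cdkn1a, Ccng1, Plk2, Bbc3, Bax, Aen, Phlda3, Sesn1 and Sesn2. They were taken by name as widely used p53 targets, with earlier results of these data known, so the counts below are no independent evidence, and each was found once among the 42172 gene entries of the count files. All 10 passed the low-count filter that left 17294 genes to test.

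Polyadenylated RNA was sequenced in 11 libraries of primary hippocampal neurons from CD (Sprague Dawley) IGS rats, at day 7 in vitro. Every culture expressed a construct. Control cultures expressed green fluorescent protein (GFP, 3 libraries), and the others exogenous linker histone H1.4, either wild-type (WT H1.4, 4 libraries) or with a C-terminal frameshift (H1.4 CFT, 4 libraries). Linker histones bind DNA at the entry and exit of the nucleosome, and the C-terminal tail is the part that compacts chromatin. The animals' age, the promoter of the constructs, the way they were delivered and the species of the H1.4 sequence are not given in the sources used here. H1f4, the rat gene for H1.4, had 0 to 8 counts per library, so that it cannot check the group labels.

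The study's design text calls the cultures biological replicates, without saying whether they came from separate animals or preparations, so the p-values measure the spread between these libraries. Libraries are named by group and replicate number, 1 to 4 for WT and CFT and 2 to 4 for GFP. They held between 12070941 and 18846492 counts in genes. Levels are given as CPM, a gene's count as a share of the TMM-scaled library total, with the mean ± SD over the libraries of a group (n = 4 for WT H1.4, n = 4 for H1.4 CFT, n = 3 for GFP). A gene rose or fell only where edgeR's quasi-likelihood test gave a Benjamini-Hochberg adjusted p under 0.05 over all genes tested, and in every sentence below an adjusted p comes from that test unless another tool is named. In each group the libraries numbered 3 and 4 stood apart from those numbered 1 and 2. Libraries of a group differed by 1.79 to 2.28 times the counting variance within these number pairs, and by 3.8 to 10.1 times between them. Since the labels name no batch, results are also given within each number pair. Cultures of this kind hold several cell types, and in bulk RNA fewer cells of a type and less RNA per cell cannot be told apart.

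In H1.4 CFT neurons the targets did not move as 1 group. Relative to WT H1.4, Aen, Bbc3, Cdkn1a, Bax and Mdm2 rose, Plk2 and Ccng1 fell, and Sesn1, Sesn2 and Phlda3 did not pass the test. Thus 5 of 10 were higher, where 16.7% of all genes tested were, and 2 of 10 lower, where 19.2% were, and 35.9% of all genes passed either way. Relative to GFP, Aen, Bbc3, Cdkn1a, Bax and Sesn2 rose and Plk2 fell, where 29.5% of all genes passed. That is 5 of 10 higher, against 13.3% of all genes, and 1 of 10 lower, against 16.2%. The median log2 fold change of the 10 genes was 0.15 relative to WT H1.4 and 0.23 relative to GFP, and over all genes tested it was 0.0176 and 0.0111. Both comparisons use the same 4 H1.4 CFT libraries. Between WT H1.4 and GFP, 0 of 10 passed, and 0.943% of all genes did.

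**Figure D1:**
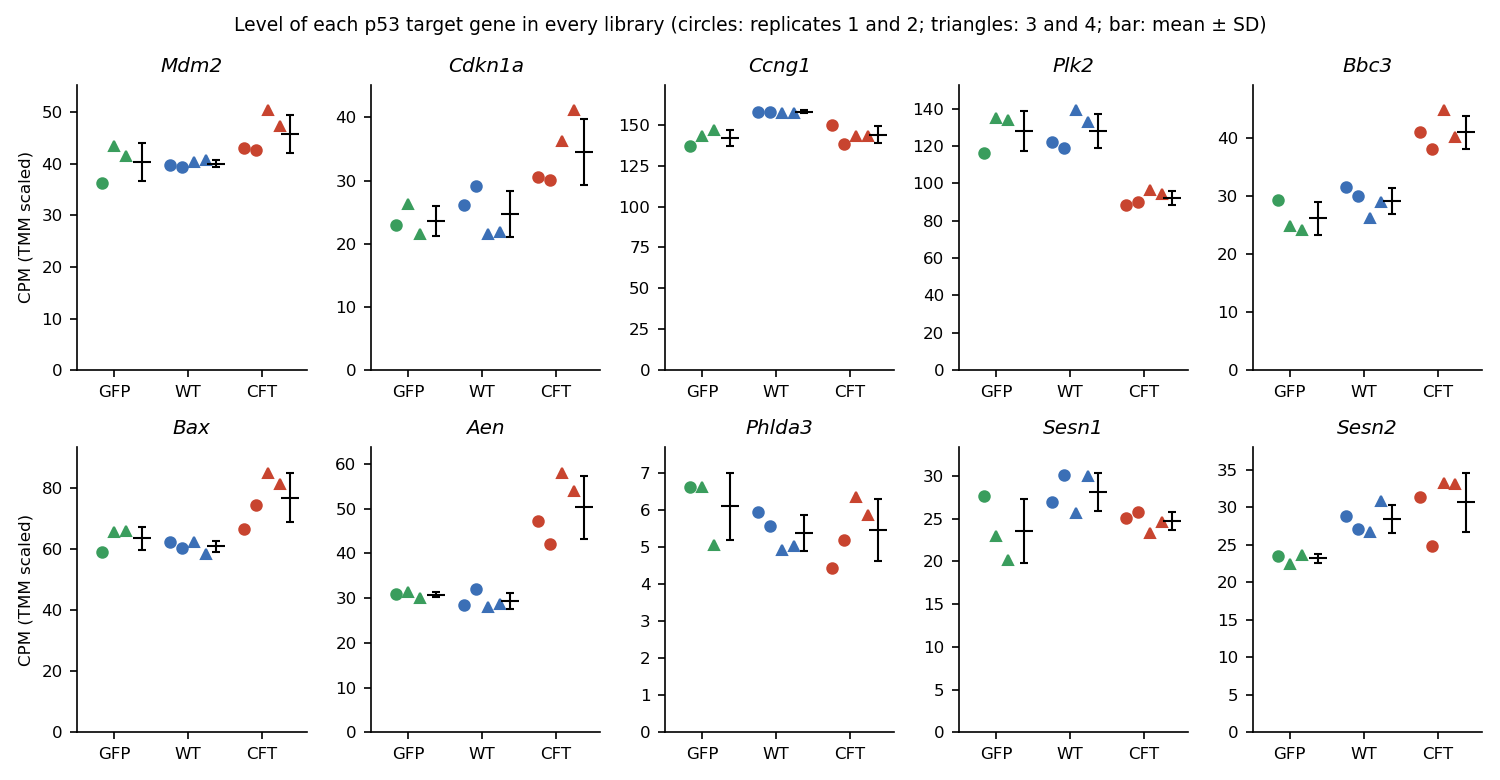
Level of each of the 10 genes in CPM (y axis, from 0) in every library, by group (x axis). Circles are libraries numbered 1 and 2, triangles are 3 and 4, and the black mark beside each group is the mean ± SD. All 4 H1.4 CFT points lie above every other point for Aen, Bbc3, Cdkn1a and Bax, and below every other point for Plk2.

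The upstream sequences of these genes differ in whether a near-complete p53 response element was found close to the start. Some are shown here because they belong to genes that moved in different ways. RefSeq promoter sequences of the GRCr8 build were found for 8 of the 10 genes, all but Bbc3 and Bax. The 250 bases before each gene's start were searched on both strands (the element reads alike on both) for the p53 response element, a 20-base motif. It was sought as an unbroken stretch, and elements with a gap or outside this window were not sought. A match at 18 or more bases, with the invariant C and G of its core in place, was present in 92 of 33469 promoters (0.275%), and a match at 19 or more in 15 (0.0448%). Aen, Cdkn1a and Ccng1 hold such a stretch, which is in capitals below.
Aen, chr1:142224283-142224532, plus strand, 18 of 20 bases: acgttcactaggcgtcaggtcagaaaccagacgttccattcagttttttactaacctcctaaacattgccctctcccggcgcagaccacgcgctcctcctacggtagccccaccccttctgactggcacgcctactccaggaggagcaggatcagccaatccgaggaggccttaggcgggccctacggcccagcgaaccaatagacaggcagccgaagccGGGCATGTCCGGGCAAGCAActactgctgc
Cdkn1a, chr20:7150682-7150931, plus strand, 19 of 20 bases: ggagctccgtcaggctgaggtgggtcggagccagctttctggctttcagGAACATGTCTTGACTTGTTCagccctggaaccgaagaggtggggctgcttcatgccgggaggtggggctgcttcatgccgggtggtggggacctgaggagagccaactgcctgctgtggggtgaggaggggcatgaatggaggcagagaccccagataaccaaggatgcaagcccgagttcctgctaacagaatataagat
Ccng1, chr10:25684877-25685126, minus strand, 19 of 20 bases: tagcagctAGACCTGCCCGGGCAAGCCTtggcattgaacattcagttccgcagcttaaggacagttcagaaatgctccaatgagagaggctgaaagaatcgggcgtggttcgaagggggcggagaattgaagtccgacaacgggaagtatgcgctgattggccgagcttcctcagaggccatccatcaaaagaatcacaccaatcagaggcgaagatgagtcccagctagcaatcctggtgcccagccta
The stretches begin 30, 201 and 242 bases before the start of Aen, Cdkn1a and Ccng1. Of these 3 genes with a near-complete element, Aen and Cdkn1a were higher in H1.4 CFT than in both other groups, while Ccng1 was not higher in either comparison. Plk2, Mdm2, Sesn1, Sesn2 and Phlda3 had no stretch with 18 matching bases in this window. Plk2, the gene of the 10 that fell most, holds the cyclic AMP response element TGACGTCA, in capitals below, 66 bases before its start. This element was present in the same window of 531 of 33469 promoters (1.59%) and in none of the other 7 genes.
Plk2, chr2:43702286-43702535, plus strand: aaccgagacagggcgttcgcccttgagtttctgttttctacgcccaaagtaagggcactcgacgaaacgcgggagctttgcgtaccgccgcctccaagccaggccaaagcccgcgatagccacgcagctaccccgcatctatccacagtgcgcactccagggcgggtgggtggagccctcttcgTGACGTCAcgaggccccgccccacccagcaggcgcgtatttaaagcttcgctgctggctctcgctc
A match describes letters in this window, and binding of a factor there was not measured.

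Mdm2 encodes the ubiquitin ligase that marks p53 for degradation, and as a p53 target it closes a feedback loop. Its level was 39.7, 39.3, 40.4 and 40.8 CPM in WT 1 to 4, 43, 42.7, 50.3 and 47.3 CPM in CFT 1 to 4, and 36.3, 43.4 and 41.4 CPM in GFP 2 to 4. The H1.4 CFT libraries were all above those of WT H1.4, while GFP 3 lay among them. Mdm2 rose 1.14-fold relative to WT H1.4 (log2 fold change 0.19, SE 0.0657, adjusted p = 0.0258). This call did not hold without WT 1 (adjusted p = 0.0608), WT 2 (0.0639), CFT 3 (0.106) or CFT 4 (0.0646). Relative to GFP it did not pass (log2 fold change 0.18, SE 0.0721, adjusted p = 0.0599), and with the replicate number as a block it did (log2 fold change 0.20, adjusted p = 0.0204). It also passed without CFT 1 (0.0382), CFT 2 (0.0344) or GFP 3 (0.0454).

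Of the targets that act on the cell cycle, Cdkn1a rose and the others did not. Cdkn1a encodes p21, the inhibitor of cyclin-dependent kinases through which p53 arrests the cell cycle. It stood at 26.1, 29.2, 21.6 and 21.8 CPM in WT 1 to 4, at 30.6, 30.1, 36.3 and 41.1 CPM in CFT 1 to 4, and at 23, 26.3 and 21.6 CPM in GFP 2 to 4. H1.4 CFT did not overlap the other groups, which overlapped each other, but CFT 2 lay less than 1 CPM above WT 2. The mean was 34.5 ± 5.21 CPM in H1.4 CFT, 24.7 ± 3.65 CPM in WT H1.4 and 23.6 ± 2.41 CPM in GFP. Cdkn1a rose by 40.3% from WT H1.4 (log2 fold change 0.49, SE 0.115, adjusted p = 0.00436), and from GFP the rise was 1.47-fold (0.55, SE 0.128, adjusted p = 0.00478).

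Ccng1, which encodes cyclin G1, a partner of phosphatase 2A in the regulation of Mdm2, fell slightly. It had 158, 158, 157 and 157 CPM in WT 1 to 4, 150, 138, 143 and 143 CPM in CFT 1 to 4, and 137, 143 and 147 CPM in GFP 2 to 4. WT H1.4 was above both other groups without overlap, and H1.4 CFT and GFP overlapped. Ccng1 fell by 8.85% relative to WT H1.4 (log2 fold change -0.13, SE 0.04, adjusted p = 0.0129). Relative to GFP the log2 fold change was 0.01 (SE 0.0436, adjusted p = 0.858).

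Plk2 encodes a polo-like kinase that neurons induce with activity and that weakens and removes synapses during homeostatic scaling. It stood at 122, 119, 139 and 133 CPM in WT 1 to 4, at 88.3, 90.2, 96.2 and 94.1 CPM in CFT 1 to 4, and at 116, 135 and 134 CPM in GFP 2 to 4. Every H1.4 CFT library was below every library of the other groups. The mean was 92.2 ± 3.6 CPM in H1.4 CFT, 128 ± 9.29 CPM in WT H1.4 and 128 ± 10.7 CPM in GFP. Plk2 fell 1.39-fold from WT H1.4 (log2 fold change -0.47, SE 0.0563, adjusted p = 3.65e-06), and from GFP the fall was 1.39-fold (-0.48, SE 0.0608, adjusted p = 1.28e-05). WT H1.4 and GFP had the same mean to 3 digits (log2 fold change -0.0012, SE 0.0606).

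The targets that promote cell death rose in H1.4 CFT, apart from Phlda3. Aen encodes a nuclease that p53 induces and that digests DNA in dying cells. Its level was 28.5, 32, 28 and 28.7 CPM in WT 1 to 4, 47.2, 42, 58 and 53.9 CPM in CFT 1 to 4, and 31, 31.4 and 30.1 CPM in GFP 2 to 4. The lowest H1.4 CFT library was about 10 CPM above the highest library of the other groups, which lay within 4 CPM of each other. The mean was 50.3 ± 7.06 CPM in H1.4 CFT, 29.3 ± 1.82 CPM in WT H1.4 and 30.8 ± 0.657 CPM in GFP. Aen rose 1.72-fold from WT H1.4 (log2 fold change 0.78, SE 0.0821, adjusted p = 1.20e-06), and from GFP the rise was 1.63-fold (0.71, SE 0.0906, adjusted p = 1.53e-05).

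Bbc3 encodes PUMA, a BH3-only protein that releases BAX and BAK from their inhibitors and is a main trigger of neuronal death by p53. It had 31.6, 30, 26.3 and 29 CPM in WT 1 to 4, 41, 38.1, 44.8 and 40.2 CPM in CFT 1 to 4, and 29.4, 24.8 and 24.2 CPM in GFP 2 to 4. All H1.4 CFT libraries were above all others. The mean was 41 ± 2.81 CPM in H1.4 CFT, 29.2 ± 2.22 CPM in WT H1.4 and 26.2 ± 2.84 CPM in GFP. Bbc3 rose by 40.4% from WT H1.4 (log2 fold change 0.49, SE 0.075, adjusted p = 5.49e-05), and from GFP the rise was 1.57-fold (0.65, SE 0.084, adjusted p = 1.33e-05).

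Bax encodes the protein that opens pores in the outer mitochondrial membrane. Its level was 62.3, 60.5, 62.5 and 58.6 CPM in WT 1 to 4, 66.7, 74.4, 85.1 and 81.3 CPM in CFT 1 to 4, and 59.1, 65.6 and 65.9 CPM in GFP 2 to 4. WT H1.4 and GFP overlapped, and H1.4 CFT lay above both, although CFT 1 was within 1 CPM of GFP 4. The mean was 76.9 ± 8.1 CPM in H1.4 CFT, 61 ± 1.82 CPM in WT H1.4 and 63.6 ± 3.83 CPM in GFP. Bax rose 1.26-fold from WT H1.4 (log2 fold change 0.33, SE 0.0638, adjusted p = 0.00045), and from GFP the rise was 1.21-fold (0.27, SE 0.0699, adjusted p = 0.00566).

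Phlda3, a p53 target that inhibits the survival kinase Akt, was the gene with the fewest reads, 77 to 113 counts per library. It had 5.96, 5.57, 4.91 and 5.04 CPM in WT 1 to 4, 4.43, 5.18, 6.36 and 5.86 CPM in CFT 1 to 4, and 6.61, 6.63 and 5.05 CPM in GFP 2 to 4. All groups overlapped. The log2 fold change was 0.02 (SE 0.147, adjusted p = 0.912) relative to WT H1.4 and -0.15 (SE 0.161, adjusted p = 0.521) relative to GFP. In the RefSeq table a ribosomal protein pseudogene, Rpl11-ps12, overlaps the span of Phlda3, so the count of Phlda3 may be less certain. That table is of the GRCr8 build, not the build used for the counts.

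The sestrins Sesn1 and Sesn2 restrain the growth kinase complex mTORC1 through GATOR2 and protect against oxidative stress. Both had their lowest mean in GFP. Sesn1 had 26.9, 30.1, 25.6 and 30 CPM in WT 1 to 4, 25.1, 25.8, 23.3 and 24.6 CPM in CFT 1 to 4, and 27.6, 23 and 20.2 CPM in GFP 2 to 4, and the groups overlapped. Its log2 fold change was -0.18 relative to WT H1.4 (SE 0.085, adjusted p = 0.0984) and 0.07 relative to GFP (SE 0.0949, adjusted p = 0.617). With a term for number pairs the value relative to WT H1.4 was -0.18 with an adjusted p of 0.0482.

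Sesn2 had 28.9, 27.1, 26.7 and 30.8 CPM in WT 1 to 4, 31.4, 24.9, 33.2 and 33.1 CPM in CFT 1 to 4, and 23.5, 22.5 and 23.7 CPM in GFP 2 to 4. GFP was below both other groups without overlap, and CFT 2 was the lowest library of the H1.4 groups. Sesn2 rose 1.32-fold in H1.4 CFT, at 30.7 ± 3.93 CPM, from 23.2 ± 0.655 CPM in GFP (log2 fold change 0.40, SE 0.0928, adjusted p = 0.00296). Relative to WT H1.4 it did not pass (log2 fold change 0.11, SE 0.0826, adjusted p = 0.308), but it did without CFT 2 (log2 fold change 0.20, adjusted p = 0.0345) and within libraries 3 and 4 (0.20, adjusted p = 0.0476). A long non-coding RNA gene, LOC134487007, overlaps Sesn2 in the RefSeq table of GRCr8, which is not the build used for the counts. The strand setting of the counting is not given, so reads of the pair may be mixed.

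**Figure D2:**
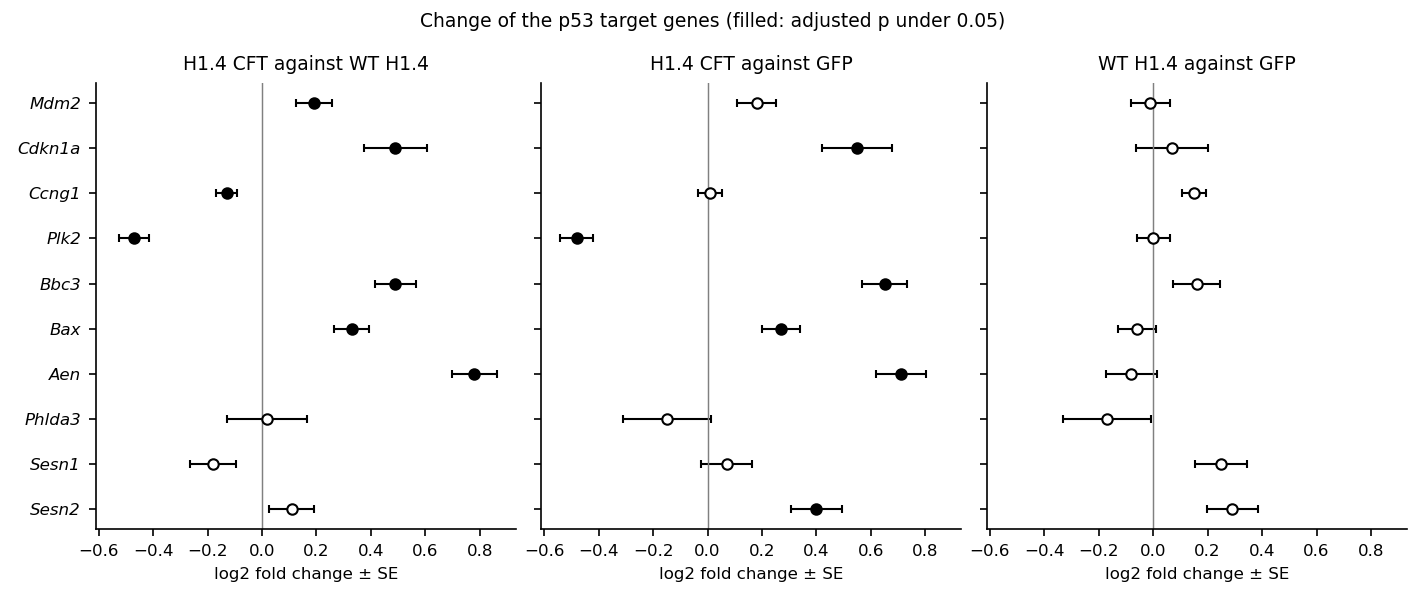
Log2 fold change ± SE (x axis) of each gene (y axis) in each comparison, filled where the adjusted p was under 0.05. Values run from -0.48 for Plk2 to 0.78 for Aen in the comparisons of H1.4 CFT, and from -0.17 to 0.29 in WT H1.4 relative to GFP, where no point is filled.

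In WT H1.4 neurons none of the 10 genes differed from GFP by edgeR's test. DESeq2 and limma-voom also called 0. At an unadjusted p under 0.05 there were 3, where 11.5% of all genes tested reached that level: Sesn2 (log2 fold change 0.29, SE 0.0936, adjusted p = 0.184), Ccng1 (0.15, SE 0.0437, adjusted p = 0.134) and Sesn1 (0.25, SE 0.0947, adjusted p = 0.265). Ccng1 and Sesn2, both higher in WT H1.4, were also the 2 genes whose WT H1.4 and GFP libraries did not overlap, where 12.2% of all genes did not. The other log2 fold changes ran from -0.17 for Phlda3 to 0.16 for Bbc3. With libraries numbered 3 and 4 alone, Sesn1 (0.37, adjusted p = 0.00738) and Sesn2 (0.31, adjusted p = 0.0206) passed, and Sesn1 also did without GFP 2 (0.38, adjusted p = 0.0446). The groups of H1.4 CFT and WT H1.4 did not overlap for 7 of 10 genes (34.6% of all genes), and those of H1.4 CFT and GFP for 6 of 10 (35.5%).

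Within the H1.4 CFT group the genes that rose were higher in the libraries numbered 3 and 4 than in 1 and 2, with the exception of Bbc3, where CFT 1 exceeded CFT 4. Fitted within libraries 1 and 2, the change relative to WT H1.4 was 0.56 for Aen, 0.36 for Bbc3, 0.20 for Bax, 0.14 for Cdkn1a and 0.12 for Mdm2 on the log2 scale, and the last 2 did not pass (adjusted p of 0.254 and 0.252). Within libraries 3 and 4 the same genes changed by 0.98, 0.62, 0.45, 0.83 and 0.26, and all 5 passed. In a fit with group by number pair, chosen after the data were seen, the difference between the pairs passed for Cdkn1a (0.69, SE 0.127, adjusted p = 4.06e-05), Aen (0.41, SE 0.11, adjusted p = 0.00674) and Bax (0.26, SE 0.0849, adjusted p = 0.0378), where 10.2% of all genes passed. It did not pass for Bbc3 (0.26, SE 0.114, adjusted p = 0.147) or Plk2 (-0.08, SE 0.0677, adjusted p = 0.538). Plk2 fell within both pairs, by 0.43 and 0.52.

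Relative to GFP, whose first number pair is GFP 2 alone, that library was assumed to vary like those of the other groups. Within the pairs 1 and 2 and 3 and 4, Aen changed by 0.52 and 0.86 and Bbc3 by 0.42 and 0.79. Cdkn1a changed by 0.40 and 0.71 and Bax by 0.25 and 0.34. All of these passed within libraries 3 and 4, while the fit within 1 and 2 cannot measure the spread of GFP. Sesn2 changed by 0.26 in libraries 1 and 2, with GFP 2 alone, and passed in 3 and 4 (0.51, adjusted p = 1.88e-06). None of the 10 genes passed for a difference between the pairs in this comparison, where 4.18% of all genes did. The smallest of these adjusted p was 0.122, for Bbc3.

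**Figure D3:**
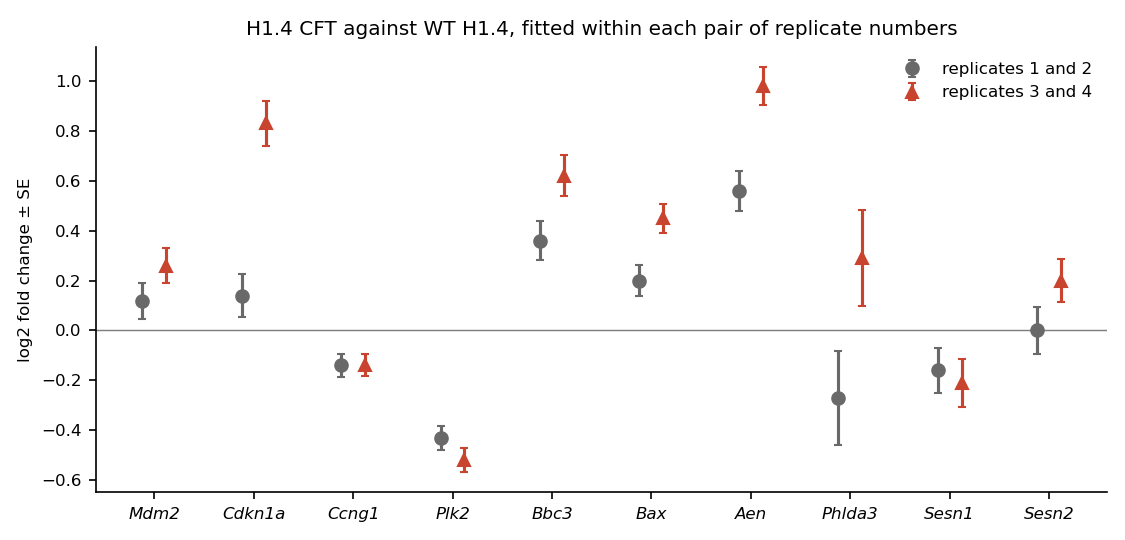
Log2 fold change ± SE (y axis) of H1.4 CFT relative to WT H1.4 for each gene (x axis), fitted within libraries numbered 1 and 2 (circles) and 3 and 4 (triangles). Cdkn1a lies at 0.14 and 0.83, while Ccng1 lies at -0.14 in both.

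Genes that regulate or partner p53 were compared next. Of 16 tested, 4 rose and 0 fell relative to WT H1.4 (median log2 fold change 0.02), where 35.9% of all genes passed. Relative to GFP, 2 rose and 0 fell (median 0.07), where 29.5% of all genes passed. Relative to WT H1.4, Mdm4, which binds and silences p53, had a log2 fold change of -0.06 (adjusted p = 0.274), and it fell within libraries 1 and 2 (-0.14, adjusted p = 0.0195). Ppm1d, the phosphatase that reverses p53 activation, stood at 0.03 (adjusted p = 0.762). Rchy1, a ubiquitin ligase of p53, rose 1.21-fold (40.2 ± 2.57 CPM, from 33.3 ± 1.46 CPM, adjusted p = 0.00328), but not within libraries 1 and 2 (adjusted p = 0.0682). The p53 relative Tp73 rose 1.70-fold from a low level (3.09 ± 0.508 CPM, from 1.82 ± 0.275 CPM, adjusted p = 0.00625), and did not pass within libraries 1 and 2 (adjusted p = 0.0807). Tp53bp2, which encodes the p53-binding protein ASPP2, rose 1.13-fold (adjusted p = 0.0156), but not within libraries 3 and 4 (0.11, adjusted p = 0.18) or without WT 1 (adjusted p = 0.0531). Relative to GFP, Tp53bp2 and Tp73 rose 1.15-fold and 1.68-fold (adjusted p of 0.0144 and 0.0174). The call for Tp53bp2 was lost without GFP 3 (adjusted p = 0.0983) or GFP 4 (0.0517), and that for Tp73 without CFT 3 (0.0605) or GFP 3 (0.0699). Within libraries 1 and 2, where GFP 2 is the only control, the adjusted p was 0.348 and 0.412.

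Other p53 targets were counted in the same way. Of 32 tested, 8 rose and 2 fell relative to WT H1.4 (median log2 fold change 0.05), where 35.9% of all genes passed. Relative to GFP, 8 rose and 1 fell (median 0.03), where 29.5% of all genes passed. Apaf1, the scaffold of the apoptosome, rose 1.21-fold relative to WT H1.4 (96.7 ± 3.96 CPM, from 79.8 ± 2.05 CPM, adjusted p = 7.92e-05) and 1.33-fold relative to GFP (72.9 ± 1.67 CPM, adjusted p = 5.46e-06). Kitlg, the ligand of the receptor Kit, rose 1.28-fold and 1.29-fold. Pidd1, a death domain protein that activates caspase-2, rose 1.93-fold relative to GFP (5.86 ± 0.778 CPM, from 3 ± 0.456 CPM, adjusted p = 0.00131). Tp53i11 fell 1.16-fold relative to WT H1.4 (adjusted p = 0.000611).

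Some further targets are named here after their values were seen. Tp53inp1, a stress protein that promotes p53 activity, had 46.3, 46.4, 50.6 and 53.3 CPM in WT 1 to 4 and 68, 63.4, 86.7 and 98.4 CPM in CFT 1 to 4, and rose 1.61-fold relative to WT H1.4 (log2 fold change 0.69, SE 0.129, adjusted p = 0.00233). Like Aen and Cdkn1a it was highest in CFT 3 and CFT 4. Rps27l and the receptor gene Eda2r rose 1.38-fold and 1.45-fold relative to WT H1.4 (adjusted p of 0.00108 and 0.00336), and the antiproliferative gene Btg2 rose 1.21-fold (adjusted p = 0.00296). Gadd45a, a classic DNA damage gene, had a log2 fold change of 0.07 (SE 0.125, adjusted p = 0.695), and Pmaip1, the BH3-only gene NOXA, one of 0.47 (SE 0.277, adjusted p = 0.193) at 0.882 to 1.93 CPM. For Zmat3 and Ei24 the log2 fold changes were 0.01 (SE 0.0421) and 0.00 (SE 0.0513). Rrm2b, a ribonucleotide reductase subunit for DNA repair, fell 1.21-fold (adjusted p = 0.00666).

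**Figure D4:**
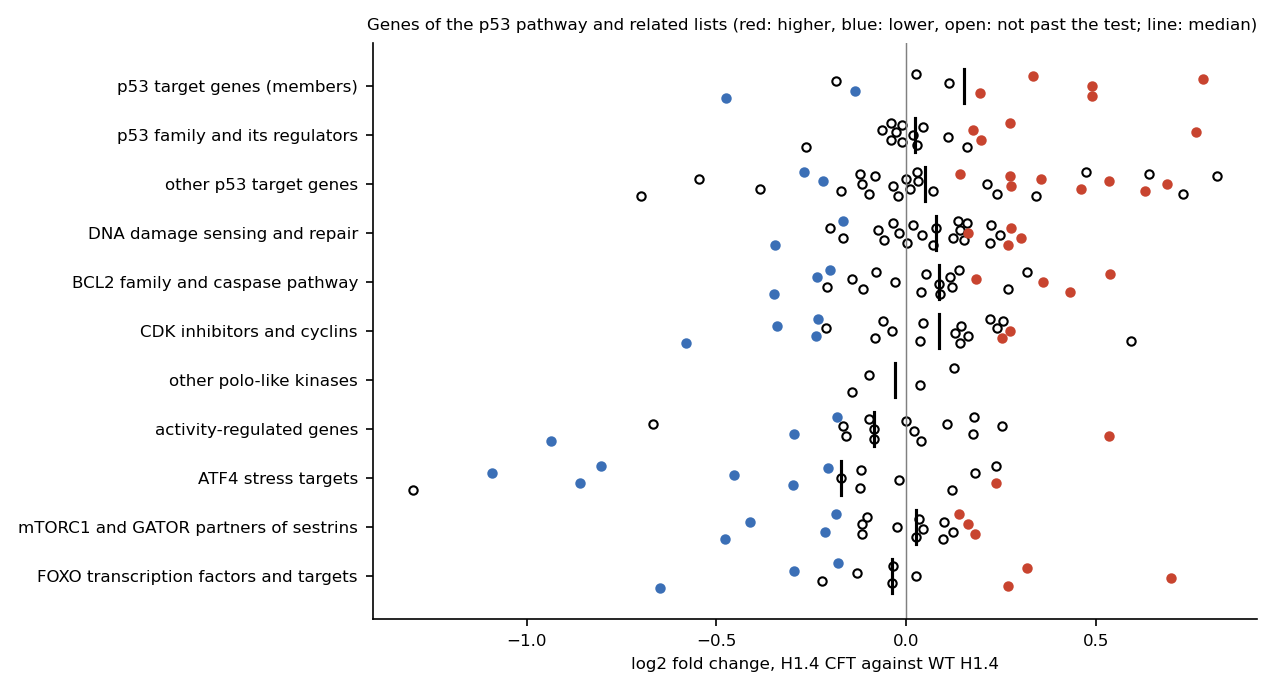
Log2 fold change in H1.4 CFT relative to WT H1.4 (x axis) of each tested gene in the 10 target genes and 10 related lists (y axis). Red points were higher, blue lower and open points did not pass the test, and the black line is the median of the list, which lies at 0.15 for the 10 target genes and -0.17 for the ATF4 targets.

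The counts of the related lists are to be read beside the share of all genes that passed, 35.9% relative to WT H1.4 and 29.5% relative to GFP. Of the BCL2 family and caspase pathway, which acts beside Bax and Bbc3, 4 of 21 tested genes rose and 3 fell relative to WT H1.4, and 2 rose and 3 fell relative to GFP. Bcl2l11, which encodes the BH3-only protein BIM, rose 1.35-fold relative to WT H1.4 (16.5 ± 1.55 CPM, from 12.2 ± 0.912 CPM, adjusted p = 0.00125) and 1.48-fold relative to GFP. Diablo, which neutralises inhibitors of caspases, rose by 0.36 and 0.32 on the log2 scale in these comparisons. Cycs, cytochrome c, fell 1.21-fold relative to GFP (adjusted p = 0.0036), and within libraries 1 and 2, with GFP 2 as the only control, the adjusted p was 0.176.

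Of 25 tested genes of DNA damage sensing and repair, 4 rose and 2 fell relative to WT H1.4 (median log2 fold change 0.08), and 5 rose and 2 fell relative to GFP (median 0.05). Prkdc, the DNA-dependent protein kinase, rose 1.21-fold and 1.35-fold, and Parp1, a sensor of DNA breaks, rose by 0.16 on the log2 scale relative to WT H1.4. The calls relative to WT H1.4 were lost within libraries 1 and 2 for Prkdc (adjusted p = 0.176) and within 3 and 4 for Parp1 (adjusted p = 0.11). Relative to GFP, Fancd2 and the ligase gene Lig4 rose 1.47-fold and 1.33-fold. Rnf168, a ubiquitin ligase at DNA breaks, fell 1.27-fold relative to WT H1.4 (adjusted p = 0.00405). Of 20 CDK inhibitors and cyclins, 2 rose and 4 fell relative to WT H1.4. Among these, Cdkn2d, another inhibitor of cyclin-dependent kinases, fell 1.49-fold (41.5 ± 6.02 CPM, from 62 ± 3 CPM, adjusted p = 3.56e-05). Ccnd1 and Rbl2 fell 1.27-fold and 1.18-fold. Ccng2, the relative of Ccng1, was higher in WT H1.4 than in GFP (1.20-fold, adjusted p = 0.0475), a call that RLE scaling (0.0503) and limma-voom (0.0694) did not give, and that was lost without any single WT library and without CFT 3, GFP 3 or GFP 4 (adjusted p of 0.0511 to 0.377). Within libraries 1 and 2, with GFP 2 alone, its adjusted p was 0.532.

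Plk2 was set beside its relatives and beside genes that neurons induce with activity. Of the 4 other polo-like kinase genes, Plk1, Plk3, Plk4 and Plk5, 0 passed in any comparison by edgeR's test. Of 17 activity-regulated genes, 1, Fos, rose and 3 fell relative to WT H1.4 (median log2 fold change -0.08). Relative to GFP, 0 rose and 5 fell (median -0.20). Fos had 4.57 ± 0.3, 6.61 ± 1.74 and 6.69 ± 0.49 CPM in WT H1.4, H1.4 CFT and GFP. Between WT H1.4 and GFP the median of this list was -0.19, and 1 gene, Egr3, fell. Egr3, a transcription factor induced by neuronal activity, fell 1.91-fold relative to WT H1.4 (5.39 ± 0.676 CPM, from 10.3 ± 0.795 CPM, adjusted p = 8.03e-06) and 2.78-fold relative to GFP (14.9 ± 1.76 CPM, adjusted p = 1.53e-07). In WT H1.4 it was 1.45-fold below GFP (adjusted p = 0.032), a call lost without WT 1, WT 2, WT 4, GFP 3 or GFP 4 (adjusted p of 0.0593 to 0.297). The synaptic scaffold gene Homer1 fell 1.14-fold and Nr4a3 fell 1.23-fold relative to WT H1.4, and Homer1 did not pass within libraries 1 and 2 (adjusted p = 0.174). The neurotrophin gene Bdnf fell 1.28-fold relative to GFP, a call lost without GFP 4 (adjusted p = 0.0537) and within libraries 1 and 2, with GFP 2 as the only control (0.499).

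Sesn2 and Bbc3 are also targets of stress pathways other than p53. Of 15 tested ATF4 stress genes, 1, Ddit3, rose and 6 fell relative to WT H1.4 (median log2 fold change -0.17). Relative to GFP, 1, Slc7a11, rose and 2 fell (median -0.01). Ddit3 had 16.5 ± 0.72 CPM in H1.4 CFT and 14 ± 1.45 CPM in WT H1.4. Atf4 itself fell 1.37-fold relative to WT H1.4 (130 ± 8.09 CPM, from 179 ± 5.77 CPM, adjusted p = 6.64e-07) and Chac1, which degrades glutathione, fell 2.14-fold (adjusted p = 5.63e-06). Of 11 FOXO factors and their targets, 3 rose and 3 fell relative to WT H1.4. Foxo1 rose 1.20-fold (adjusted p = 0.000649), Txnip, an inhibitor of thioredoxin, rose 1.62-fold (174 ± 0.63 CPM, from 107 ± 9.19 CPM), and the catalase gene Cat fell 1.23-fold. Of 17 genes for mTORC1, its GATOR regulators and related partners of the sestrins, 3 rose and 4 fell relative to WT H1.4 and 3 rose and 4 fell relative to GFP. Mios, a GATOR2 subunit, and Rragd, a Rag GTPase, fell 1.33-fold and 1.39-fold relative to WT H1.4.

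Markers of cell types were also summed in each library. The counts of markers called in this and the next paragraph are to be read beside the share of all genes. Relative to WT H1.4, 16.7% of all genes were higher in H1.4 CFT and 19.2% lower, and relative to GFP 13.3% and 16.2%. Between WT H1.4 and GFP, 0.943% of all genes passed. Summed over 12 neuron markers, the level was 4492 to 4707 CPM in WT H1.4, 3229 to 3844 in H1.4 CFT and 4645 to 4793 in GFP. CFT 3 and CFT 4, which had the highest Aen, Cdkn1a and Bax, had the lowest neuron sums, 3249 and 3229 CPM. Of the 12, 8 fell and 2, Gad1 and Gad2, rose relative to WT H1.4. Relative to GFP, 9 of the 12 fell in H1.4 CFT and 0 rose. In WT H1.4, Gad1 and Gad2 were the 2 of 12 that were lower than in GFP, and 0 were higher. The falls relative to WT H1.4 with the smallest p were those of Map2, Tubb3 and Rbfox3, at 1.46-fold, 1.34-fold and 1.28-fold. The 12 dividing cell markers summed to 356 to 387 CPM in WT H1.4, 365 to 477 in H1.4 CFT and 342 to 409 in GFP. In every group the sum was higher in libraries numbered 3 and 4. It was 356, 364, 387 and 379 CPM in WT 1 to 4, 373, 365, 477 and 451 in CFT 1 to 4, and 342, 388 and 409 in GFP 2 to 4. Of the 12 dividing cell markers, 2 rose relative to WT H1.4, Mcm2 and Aurkb. Both calls were lost without CFT 3 (adjusted p of 0.051 and 0.0605) and within libraries 1 and 2 (0.208 and 0.214). The call of Aurkb was also lost without CFT 4 (0.059).

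Astrocyte markers summed to 1694 to 1824 CPM in WT H1.4, 2215 to 2303 in H1.4 CFT and 2145 to 2301 in GFP. Of 11 tested, 7 rose and 0 fell relative to WT H1.4, with Gja1, Mlc1 and Gfap 1.52-fold, 1.56-fold and 1.83-fold higher. The sums of H1.4 CFT and GFP overlapped, and relative to GFP 2 of 11, Gja1 and Mlc1, rose and 0 fell. Of these 11 markers, 6 were lower with WT H1.4 than with GFP, and 0 were higher. The 6 were Gfap, Mlc1, Gja1, Aqp4, Fgfr3 and Slc1a3. Gja1, Mlc1 and Gfap averaged 83.5, 114 and 305 CPM with WT H1.4. They averaged 127, 178 and 557 CPM with H1.4 CFT, and 101, 150 and 537 CPM with GFP. The 11 oligodendrocyte lineage markers summed to 477 to 555 CPM in H1.4 CFT, 479 to 575 in WT H1.4 and 474 to 585 in GFP, and 0 of 10 tested passed relative to WT H1.4. The endothelial, mural and fibroblast markers summed to 66.9 to 83.4, 79.1 to 89.3 and 95.1 to 107 CPM in WT H1.4, H1.4 CFT and GFP. In H1.4 CFT 4 of 12 tested rose and 1 fell relative to WT H1.4, the rises with the smallest p being those of Tek, Col1a2 and Col3a1. Relative to GFP, 2 of 12, Tek and Vwf, rose in H1.4 CFT and 1, Dcn, fell. In WT H1.4, 3 of 12, Col1a2, Col3a1 and Col1a1, were lower than in GFP and 0 were higher. The 10 microglia and macrophage markers summed to 8.46 to 14.5 CPM over all libraries, and 8 of them, among them Cx3cr1, C1qa and Tmem119, were too low to test. Of the remaining pair, Csf1r rose and P2ry12 fell relative to WT H1.4, and neither passed within libraries 1 and 2 (adjusted p of 0.174 and 0.0951). The part of these markers in the changes of the 10 genes was not tested.

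For each of the 10 genes the most similar pattern over the 11 libraries was sought among all other named genes tested, by Pearson's r of log2(CPM + 1). These values describe libraries that share groups and number pairs. The genes most like those that rose were Trit1, a transfer RNA modifying enzyme, for Aen (r = 0.98), Plekhg2 for Bbc3 (0.987), the intermediate filament gene Vim for Cdkn1a (0.965), the replication helicase gene Mcm7 for Bax (0.981) and Uhrf1, which maintains DNA methylation at replication, for Mdm2 (0.974). Plk2 was most like Cspg5, a neural proteoglycan gene (0.979), which had 233 ± 20.6, 168 ± 4.08 and 241 ± 21.9 CPM in WT H1.4, H1.4 CFT and GFP. For Ccng1, Sesn1, Sesn2 and Phlda3 they were Nsmf (0.934), Slc35e1 (0.936), Rgl2 (0.932) and Neurod4 (0.89).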

How the data were processed

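Polyadenylated RNA of 11 libraries was compared in 3 groups taken from the sample titles. The deposited files hold raw counts for each gene symbol. STAR 2.7.2b, HTSeq 0.10.0 and the build mRatBN7.2 are named in the submitters' processing notes. The annotation release and strand setting are not given in the sources used here. The 5 summary entries of each file were left out, and genes took 45.9% to 46.9% of reads.

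Counts were fitted in R 4.3.3 with edgeR 4.0.16: filterByExpr by group (minimum count 10, minimum total 15), TMM scaling, group as the only term over all 11 libraries, and the robust quasi-likelihood test, with Benjamini-Hochberg adjustment over 17294 genes and 8 residual degrees of freedom. The script was tested on simulated data. Alternatives were RLE scaling, DESeq2 1.42.0, limma-voom (limma 3.58.1), other filters, blocks, subsets of libraries and the omission of each library.

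The members and lists were chosen with earlier results of these data known. Of 270 list entries, Sfn and Seh1l had no match. Named genes were the 10 members, Mdm4 and Ppm1d, up to 3 called genes of each list by smallest p, and the most similar gene of each member. Some genes that meet this rule are not reported here. Residual correlations of equal replicate numbers were 0.142 to 0.192 (H1.4 CFT and WT H1.4), 0.124 to 0.255 (H1.4 CFT and GFP) and 0.0927 to 0.206 (WT H1.4 and GFP). The reported tests had group as their only term and paired no libraries. The replicate number served as a block only in an alternative fit, since the labels do not say that equal numbers mark a shared culture. Unequal numbers of the same number pair correlated as much, at 0.147 to 0.189 (H1.4 CFT and WT H1.4) and 0.123 to 0.263 (H1.4 CFT and GFP).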

Additional observations from a re-analysis of the deposited data

Results flagged for a closer look

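The change from WT H1.4 to H1.4 CFT differed between libraries numbered 3 and 4 and those numbered 1 and 2 for 3 of the 10 genes. The test was the group by number pair term of an edgeR fit over all genes. The difference, 3 and 4 minus 1 and 2, was 0.69 on the log2 scale for Cdkn1a (adjusted p = 4.06e-05), 0.41 for Aen (adjusted p = 0.00674) and 0.26 for Bax (adjusted p = 0.0378). Of all 17294 genes, 1760 (10.2%) passed this test. No gap between 1 library and the other 3 of its group was past Dixon's critical value in the 24 groups of 4 examined.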

How the results depend on the processing

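Aen, Bbc3, Bax and Plk2 kept their direction and their call in both comparisons of H1.4 CFT under all 22 alternatives run for each. Against GFP, however, the fit within libraries 1 and 2 rests on GFP 2 alone. Ccng1 kept its direction and call against WT H1.4. Cdkn1a did so except against WT H1.4 within libraries 1 and 2 (0.14). The members called numbered 5 to 8 against WT H1.4 and 5 to 7 against GFP over all alternatives. With 1 library left out these counts were 6 to 8 and 6 to 7, and 0 to 1 for WT H1.4 against GFP, where there was 1 without the low-count filter and 2 within libraries 3 and 4. Adding the replicate number as a block changed the call of Mdm2 against GFP and of no other member. It raised the genes called for WT H1.4 against GFP from 163 to 248. Other counts of that comparison were 268 with DESeq2, 462 without the low-count filter, 404 with a number pair term, 348 with only the groups compared, 1596 within libraries 3 and 4, and 44 (without GFP 3) to 306 (without GFP 2) with 1 library left out, among them 45 without GFP 4 and 84 to 105 without any 1 WT library. For H1.4 CFT against GFP, 3331 genes were called within libraries 1 and 2, against 5098. The cause was not tested.

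Changes of sign were seen where the main value had not passed. For WT H1.4 against GFP, Plk2 became 0.000364 with RLE scaling, 0.000288 with DESeq2, 0.000192 with limma-voom, 0.00298 without the low-count filter, 0.02 with the replicate block and with the number pair term, 0.05 within libraries 1 and 2 and 0.02 within 3 and 4. Mdm2 became 0.01 with the replicate block, 0.02 with the number pair term and 0.12 within libraries 1 and 2, Bax became 0.05 within 1 and 2, and Cdkn1a -0.12 within 3 and 4. Against WT H1.4, Phlda3 became -0.27 within libraries 1 and 2. Against GFP, values within 1 and 2 became -0.12 for Sesn1 and -0.07 for Mdm4, and within 3 and 4 -0.02 for Ccng1 and 0.08 for Phlda3. With 1 library left out, Phlda3 ran from -0.05 to 0.11 against WT H1.4. In H1.4 CFT against GFP, Ccng1 ran from -0.02 to 0.03, Sesn1 from -0.04 to 0.20 and Mdm4 from -0.02 to 0.04. In WT H1.4 against GFP, Plk2 ran from -0.07 to 0.03, Cdkn1a from -0.02 to 0.15, Mdm2 from -0.08 to 0.04 and Ppm1d from -0.01 to 0.11. Phlda3 has the fewest counts of the 10 genes.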
